A study of Mus musculus with 22 samples.

Results

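The expression of 10 genes used to mark stem cells of the intestinal crypt was followed in organoids of the mouse duodenum exposed to cold atmospheric plasma (CAP), a partly ionized gas that carries reactive oxygen and nitrogen species. The genes were taken by symbol from a table of 52636 genes and fall into 2 sets. The crypt base set holds 6 genes (Olfm4, Smoc2, Adra2a, Cdca7, Rgmb and Igfbp4) and the reserve set holds 4 (Bmi1, Hopx, Lrig1 and Msi1). RNA from whole organoid cultures was sequenced as 22 libraries. Organoid lines were derived from the duodenal epithelium of 4 wild-type CD1 mice, 2 months old, with 1 line per mouse. They are numbered 1 to 4 here in the order of the sample labels, which is not the numbering of lines in the study. By their passages, 12 and 14, lines 1 and 2 match the male lines that the study lists for this experiment. Lines 3 and 4 were taken as its 2 female lines, although the passages differ (4 in the labels, 2 in the study). Each line gave 1 untreated library, and lines 1, 2 and 4 gave 1 library in each of 6 treated groups. The power was 50 W and the exposure to the jet 60 s. Direct CAP was applied to the organoids themselves, with the medium replaced after 30 min or 24 h. In indirect CAP, untreated organoids received medium taken from a culture that had been given CAP. For plasma-activated medium (PAM), the medium had been treated in the absence of cells. Both media were given for 24 h from day 1 or from day 2 after replating, by the study's description, while the sample labels give 30 min and 24 h for these same groups. The names used by the study are kept here. By the study's scheme, fresh medium followed the exposures that began on day 1 and cultures ended on day 3. The media given from day 2 had been made on day 1 and stayed on until the end of culture. The 30 min group is also described in the study as an early time after treatment.

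The crypt base columnar cell is the dividing stem cell of the intestine and sits between Paneth cells, where Wnt signals are high. Its progeny move up the crypt, divide a few more times and differentiate. A set of slowly cycling or position-defined cells has been proposed as a reserve that can refill the crypt base after injury, and Bmi1, Hopx, Lrig1 and Msi1 have been used to mark it, although transcripts of these genes are also found in crypt base cells. In RNA from whole cultures, a fall of a marker can come from fewer cells of a type or from less RNA per cell, and these cannot be told apart.

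Sequence upstream of the transcription start was held by the RefSeq table of the mouse genome (GRCm38.p6) for 8 of the 10 genes, in 11 windows of 250 bases. The windows of 4 genes are shown because these genes mark the extremes of the response described below: Olfm4 fell most, Igfbp4 was the crypt base gene with no call, Hopx was called in 1 treated group and Bmi1 in none. The letters run 5′ to 3′ on the strand of the gene, end at the base before the RefSeq start or, where an exon begins upstream of that start, before that exon, and have each CpG dinucleotide in capitals.
Olfm4, chr14:80000052-80000250, plus strand: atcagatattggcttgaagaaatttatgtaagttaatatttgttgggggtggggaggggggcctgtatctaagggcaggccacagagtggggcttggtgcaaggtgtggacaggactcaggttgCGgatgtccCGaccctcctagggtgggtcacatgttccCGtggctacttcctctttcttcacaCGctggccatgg
Igfbp4, chr11:99040994-99041243, plus strand: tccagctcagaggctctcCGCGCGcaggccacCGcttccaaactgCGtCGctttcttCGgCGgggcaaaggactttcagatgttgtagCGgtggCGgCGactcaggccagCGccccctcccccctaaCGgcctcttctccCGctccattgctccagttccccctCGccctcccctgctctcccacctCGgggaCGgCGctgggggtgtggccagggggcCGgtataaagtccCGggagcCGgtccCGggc
Hopx, chr5:77115124-77115373, minus strand: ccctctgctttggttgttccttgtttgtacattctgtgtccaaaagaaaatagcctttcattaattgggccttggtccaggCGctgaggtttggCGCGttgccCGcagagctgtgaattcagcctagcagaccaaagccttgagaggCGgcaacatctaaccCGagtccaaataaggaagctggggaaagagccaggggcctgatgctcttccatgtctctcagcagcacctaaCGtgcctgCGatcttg
Bmi1, chr2:18676768-18677017, plus strand: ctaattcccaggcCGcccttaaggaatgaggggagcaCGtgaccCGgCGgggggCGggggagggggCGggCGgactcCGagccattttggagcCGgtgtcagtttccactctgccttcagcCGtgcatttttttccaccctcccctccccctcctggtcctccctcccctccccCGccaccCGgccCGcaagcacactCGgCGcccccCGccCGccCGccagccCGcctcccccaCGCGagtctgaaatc
The stretch of Olfm4 lies inside the gene as GENCODE annotates it, whose start is further upstream. Among windows not shown, that of Adra2a lies wholly within an annotated exon of Adra2a, and another of Hopx wholly within an exon of Hopxos. Over the whole window of 250 bases, Olfm4 held 4 CpG and 54.0% G and C, the fewest CpG of the 11 windows. Hopx held 8 CpG at this start, Igfbp4 22, Bmi1 21 and Lrig1 26. Over 32851 windows of all genes in the table the median was 6 CpG. None of the 11 windows held CTTTGA, the core bound by the Wnt effectors of the TCF/LEF family, on either strand, and 13.8% of all windows did. The E-box CAGCTG (13.0% of all windows) and the AP-1 motif TGANTCA (6.75%) were not found either, both being searched on both strands. TATAAA on the strand of the gene was found in 7.59% of all windows and in those of Igfbp4, Adra2a and Rgmb, where 2 overlapping windows hold the same site. The absence of a motif says only that these letters are not in this window.

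Values are read counts that the authors scaled to a total of 20 M (M, mega) per library and rounded up. They are not divided by gene length, so that levels of different genes are compared below only per kilobase (kb) of exon. From the spacing of low values, an estimated 20.0 to 28.7 M reads lay behind each library. The estimate was off by up to 8.24% in 13 simulated libraries. The 4 epithelial markers fixed for the tissue (Epcam, Cdh1, Vil1, Krt8) summed to between 73576 and 125615 in a library. The 4 fibroblast markers summed to at most 17, the 3 endothelial markers to at most 28 and the 4 immune markers to at most 198. The labels call the samples stem cells, and markers of Paneth cells, a differentiated type, summed to at least 3648 in each library. With group means removed, each of the 45 pairs of treated libraries of the same line was positively correlated (median 0.564), and the median over 90 pairs of different lines was -0.330. Removing the mean of a group of 3 libraries by itself pushes correlations between lines below 0, so the negative sign is not read. The untreated libraries of lines 1 and 2 stood apart from this: the one of line 1 correlated at a median of 0.0751 with its own line's treated libraries and of 0.541 with those of line 2, and the one of line 2 at 0.132 with its own line and 0.353 with line 1. Comparisons below do not pair libraries unless the organoid line is named as a block. Blocked comparisons with untreated libraries, and the calls they gain or lose, rest on these labels. Whether the untreated labels of lines 1 and 2 were exchanged was not tested.

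In untreated organoids all 10 genes were detected in each library. Per kb of exon, Olfm4, a secreted glycoprotein of crypt base cells, led with 7714 per kb (value 22850 ± 1903, SD, n = 4). Hopx, an atypical homeodomain protein, was next at 1699 per kb (2576 ± 232), ahead of Lrig1, a membrane protein that restrains ErbB receptors, at 1008 per kb (5630 ± 515). Smoc2, a matricellular protein, stood at 887 per kb (6166 ± 458) and Cdca7, a chromatin-bound target of Myc, at 665 per kb (2130 ± 411). Rgmb, a co-receptor for bone morphogenetic proteins (BMP), had 320 per kb (2453 ± 298) and Bmi1, a Polycomb repressor, 207 per kb (821 ± 37.4). Adra2a, an adrenergic receptor, and Msi1, an RNA-binding protein, were close together with 175 per kb (846 ± 159) and 149 per kb (863 ± 193). Igfbp4, which binds insulin-like growth factors, was lowest at 20.7 per kb (91.5 ± 51.8). The levels were not split by set, and 2 of the 3 highest genes per kb belonged to the reserve set.

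Olfm4 (ENSMUSG00000022026, chromosome 14, 79984081 to 80023139, GRCm38) fell furthest. The untreated libraries of lines 1 to 4 had values of 22768, 20867, 25431 and 22333. After direct CAP for 30 min, lines 1, 2 and 4 had 18005, 18466 and 12679, all under the untreated range. After direct CAP for 24 h the values were 4979, 5417 and 3058. These were close to those of indirect CAP from day 1, at 8373, 6311 and 3046. PAM from day 1 left 212, 612 and 1098. Indirect CAP from day 2 left 1255, 956 and 899, and PAM from day 2 left 866, 190 and 432. With PAM, then, the 6 libraries held between 0.832% and 4.81% of the untreated mean, and none of the 18 treated libraries reached the lowest untreated value. The log2 fold change was -5.78 ± 0.42 (SE) with PAM from day 2 (54.9-fold lower, adjusted p = 0.000288) and -5.44 ± 0.46 with PAM from day 1 (43.5-fold lower, adjusted p = 0.000149). It was -4.47 ± 0.12 with indirect CAP from day 2, -2.39 ± 0.19 with direct CAP for 24 h and -2.07 ± 0.29 with indirect CAP from day 1, each past the threshold, which asked for an adjusted p under 0.01 together with a change of 1 or more on the log2 scale. Direct CAP for 30 min gave -0.50 ± 0.15 (adjusted p = 0.115), which did not pass. Among the 17357 genes tested with PAM from day 1, Olfm4 ranked 10 from the lowest log2 fold change, and with PAM from day 2 it ranked 9 of 17694.

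**Figure D1:**
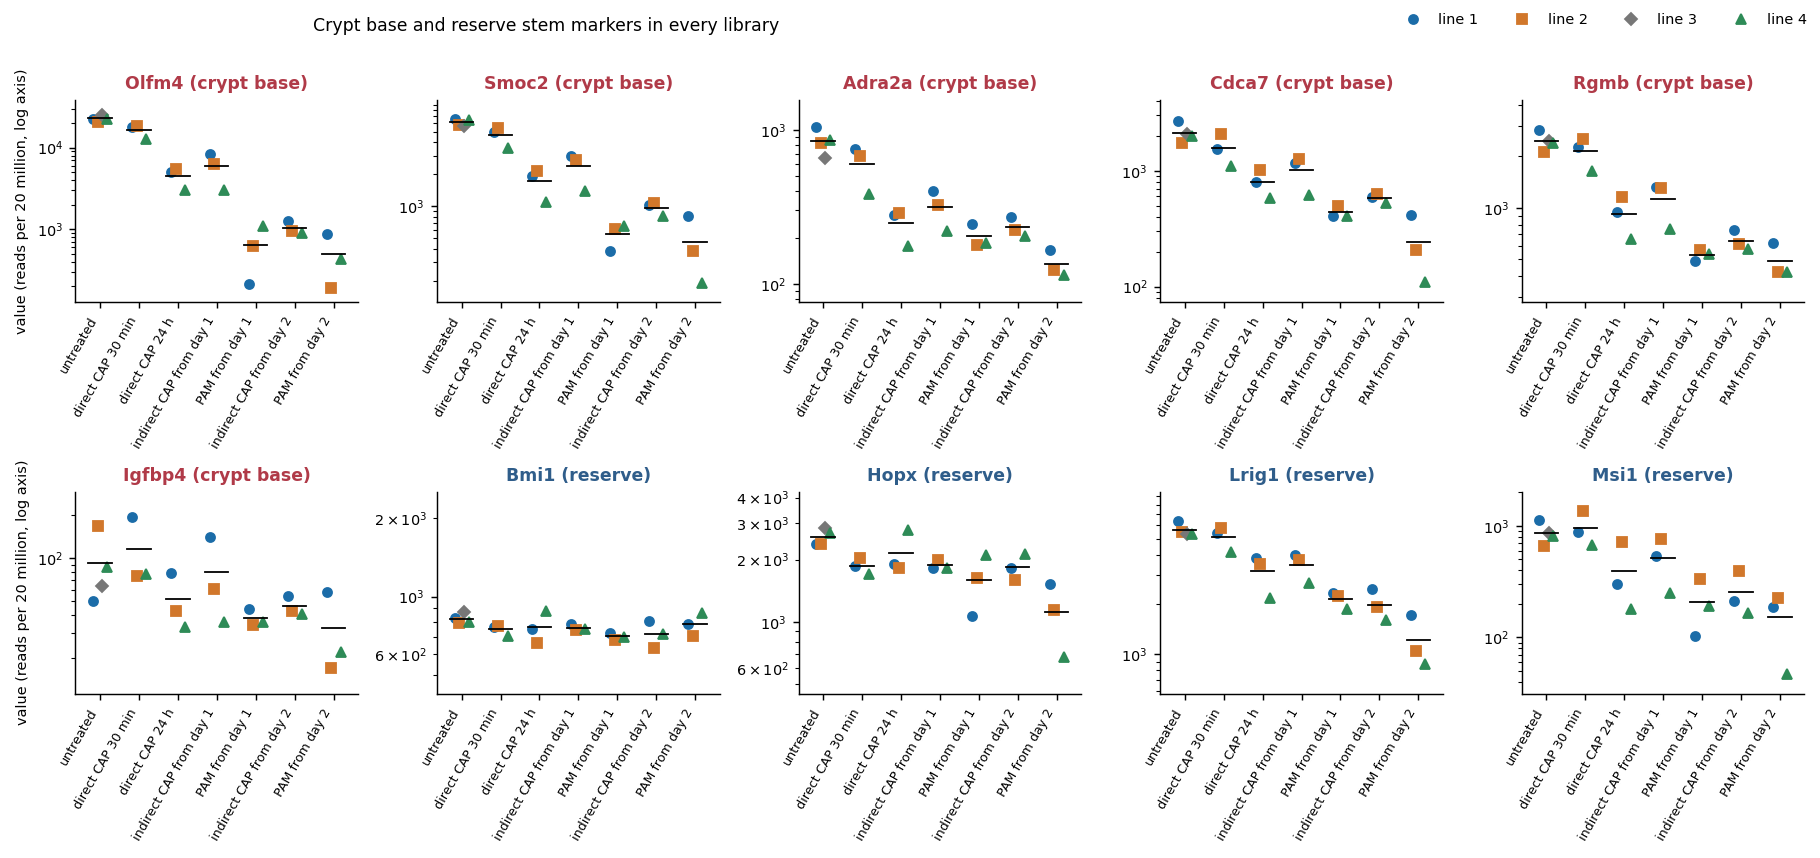
Value of each of the 10 genes (reads per 20 M, log axis) in each of the 22 libraries, by group. Symbols mark the organoid line and bars the group mean; Olfm4 ranges from 190 to 25431, whereas Bmi1 stays between 634 and 879.

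Smoc2 (chromosome 17, 14279506 to 14404790) followed the same order of groups from a level of 6606, 5841, 5705 and 6510 in untreated lines 1 to 4. It stood at 5013, 5447 and 3495 after direct CAP for 30 min and at 1924, 2152 and 1107 after direct CAP for 24 h. Indirect CAP left 2985, 2753 and 1408 from day 1 and 1039, 1081 and 807 from day 2. PAM left 379, 619 and 659 from day 1 and 805, 381 and 189 from day 2. Each of the 18 treated libraries lay under the lowest untreated library. The log2 fold change was -3.99 ± 0.40 with PAM from day 2 (15.9-fold lower), -3.52 ± 0.18 with PAM from day 1 (11.4-fold lower) and -2.67 ± 0.11 with indirect CAP from day 2. Direct CAP for 24 h gave -1.89 ± 0.21 and indirect CAP from day 1 gave -1.44 ± 0.23, both past the threshold, and direct CAP for 30 min gave -0.43 ± 0.15 (adjusted p = 0.135).

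Adra2a, Rgmb and Cdca7 fell less steeply than Olfm4 and Smoc2. Adra2a (chromosome 19, 54044151 to 54048982) lay between 654 and 1041 in untreated libraries, between 383 and 749 after direct CAP for 30 min and between 114 and 404 in the other 5 treated groups. Its log2 fold change ran from -1.43 ± 0.22 with indirect CAP from day 1 to -2.64 ± 0.19 with PAM from day 2, and all 5 of these groups passed the threshold. Rgmb (chromosome 17, 15803188 to 15831039) lay between 2113 and 2837 untreated and between 422 and 1332 in the same 5 groups. Its log2 fold change was -1.44 ± 0.19 after direct CAP for 24 h and -2.34 ± 0.16 with PAM from day 2. With indirect CAP from day 1, Rgmb had -1.15 ± 0.20 and an adjusted p of 0.0101, just outside the threshold. Cdca7 (chromosome 2, 72476159 to 72486893) lay between 1725 and 2701 untreated and between 110 and 1257 in the 5 groups. It had -1.12 ± 0.25 with indirect CAP from day 1 (adjusted p = 0.0195), which did not pass, and -3.30 ± 0.39 with PAM from day 2, which did. After direct CAP for 30 min, none of these 3 genes passed, with log2 fold changes of -0.52 ± 0.24 for Adra2a, -0.48 ± 0.22 for Cdca7 and -0.21 ± 0.16 for Rgmb, and the libraries overlapped the untreated ones.

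Igfbp4 (chromosome 11, 99041244 to 99054392) was the least abundant gene and the 1 crypt base gene without a call. The untreated libraries held only 50, 166, 64 and 86 reads per 20 M in lines 1 to 4, a 3.32-fold range. Direct CAP gave 193, 75 and 77 after 30 min and 79, 43 and 33 after 24 h. With indirect CAP it had 141, 61 and 36 from day 1 and 54, 43 and 41 from day 2, and with PAM it had 44, 34 and 36 from day 1 and 58, 17 and 22 from day 2. Only with PAM from day 1 did all treated libraries lie under all untreated ones. The nearest to a call were PAM from day 2 with a log2 fold change of -1.52 ± 0.51 (adjusted p = 0.0397) and PAM from day 1 with -1.10 ± 0.38 (adjusted p = 0.0456).

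Among the reserve genes, Lrig1 and Msi1 fell with PAM and with indirect CAP from day 2. Lrig1 (chromosome 6, 94604529 to 94700158) stood at 6393, 5487, 5342 and 5298 in untreated lines 1 to 4. It stood at 5396, 5779 and 4145 after direct CAP for 30 min and at 3820, 3517 and 2180 after 24 h. With indirect CAP from day 1 it stood at 3993, 3724 and 2697. PAM gave 2336, 2239 and 1882 from day 1 and 1727, 1052 and 868 from day 2, and indirect CAP gave 2473, 1917 and 1604 from day 2. Except after 30 min, all treated libraries were under all untreated ones. The log2 fold changes of these 3 groups were -1.39 ± 0.10 (2.62-fold lower), -2.27 ± 0.21 (4.82-fold lower) and -1.51 ± 0.14 (2.85-fold lower), each past the threshold. Direct CAP for 24 h gave -0.86 ± 0.18 (adjusted p = 0.0170) and indirect CAP from day 1 gave -0.71 ± 0.14 (adjusted p = 0.0136), and neither was called. Of the exon bases of Lrig1, 2.58% lie opposite exons of Slc25a26, whose mean value was 197.

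Msi1 (chromosome 5, 115429599 to 115455698) differed between lines. The untreated values were 1123, 658, 857 and 814 in lines 1 to 4. Lines 1, 2 and 4 had 872, 1348 and 667 after direct CAP for 30 min, 300, 714 and 178 after 24 h, and 535, 756 and 251 with indirect CAP from day 1. In these 3 groups the library of line 2 lay within or above the untreated range, and the gene was not called. Without the line 2 library of direct CAP for 24 h, and with untreated line 2 kept, it was called in that group (-1.87, adjusted p = 0.00658). It stood at 102, 336 and 190 with PAM from day 1, at 213, 396 and 164 with indirect CAP from day 2 and at 189, 225 and 47 with PAM from day 2, all under the lowest untreated value. The log2 fold changes here were -2.18 ± 0.36 (adjusted p = 0.00210), -1.81 ± 0.29 (adjusted p = 0.00170) and -2.74 ± 0.50 (adjusted p = 0.00310), and all 3 were called.

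Hopx (chromosome 5, 77086988 to 77115121) changed less. It stood at 2371, 2394, 2845 and 2693 in untreated lines 1 to 4 and at 1856, 2048 and 1699 after direct CAP for 30 min. The other values were 1899, 1814 and 2774 after direct CAP for 24 h and 1815, 2002 and 1823 with indirect CAP from day 1. After direct CAP for 24 h the library of line 4 thus lay within the untreated range. PAM gave 1072, 1624 and 2096 from day 1 and 1518, 1144 and 674 from day 2, and indirect CAP from day 2 gave 1820, 1595 and 2141. PAM from day 2 was the only group in which Hopx was called, with a log2 fold change of -1.28 ± 0.24 (2.44-fold lower, adjusted p = 0.00377). With the line as a block the adjusted p of this change was 0.0157, which does not pass, and without the line 4 library of PAM from day 2 the change was -0.96, under the limit for its size. The call was also lost without line 2 of this group or without any 1 of the 4 untreated libraries. The other 5 log2 fold changes ran from -0.28 ± 0.15 after direct CAP for 24 h to -0.74 ± 0.20 with PAM from day 1. The exons of Hopx overlap those of Hopxos, on the opposite strand, over 412 bases, or 27.2% of the exon length of Hopx. In each of the 22 libraries Hopxos had between 0.414 and 0.475 times the value of Hopx. The sources used here do not say whether reads were counted by strand, and without strand the reads of the 2 genes cannot be told apart.

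**Figure D2:**
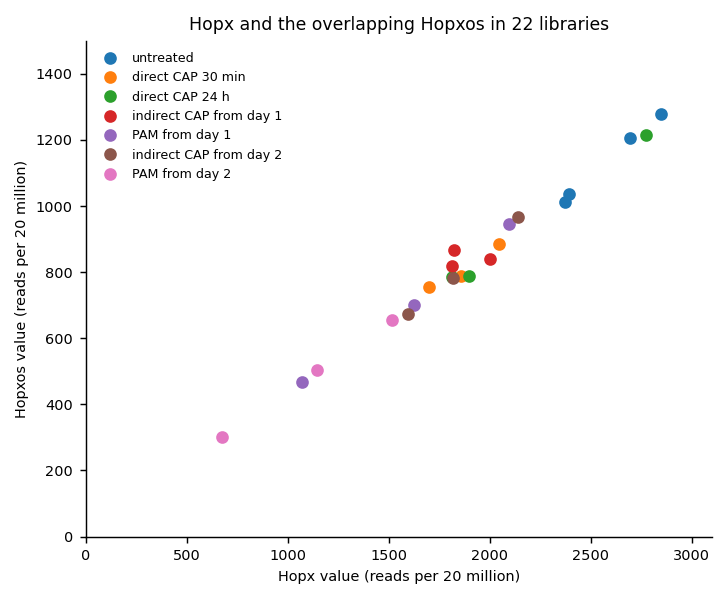
Value of Hopxos against value of Hopx in the 22 libraries (reads per 20 M, both axes linear from 0), coloured by group. The points lie along one line, with a ratio between 0.414 and 0.475.

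Bmi1 (chromosome 2, 18677018 to 18686629) was the flattest of the 10 genes. The untreated libraries held 826, 791, 872 and 795 in lines 1 to 4, and the 18 treated libraries lay between 634 and 879. The group means ran from 703 ± 23.1 with PAM from day 1 to 785 ± 79.5 with PAM from day 2, beside 821 ± 37.4 (SD, n = 4) untreated. No group was called, with log2 fold changes between -0.22 ± 0.08 and -0.07 ± 0.10. The 95% confidence interval was -0.31 to 0.17 with PAM from day 2, where Olfm4 had -6.75 to -4.81, and -0.40 to -0.04 with PAM from day 1. A change of 1 on the log2 scale, in either direction, was outside the interval of Bmi1 in each of the 6 groups. With quantile normalization the sign of the change with PAM from day 2 turned (0.13), again without a call.

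**Figure D3:**
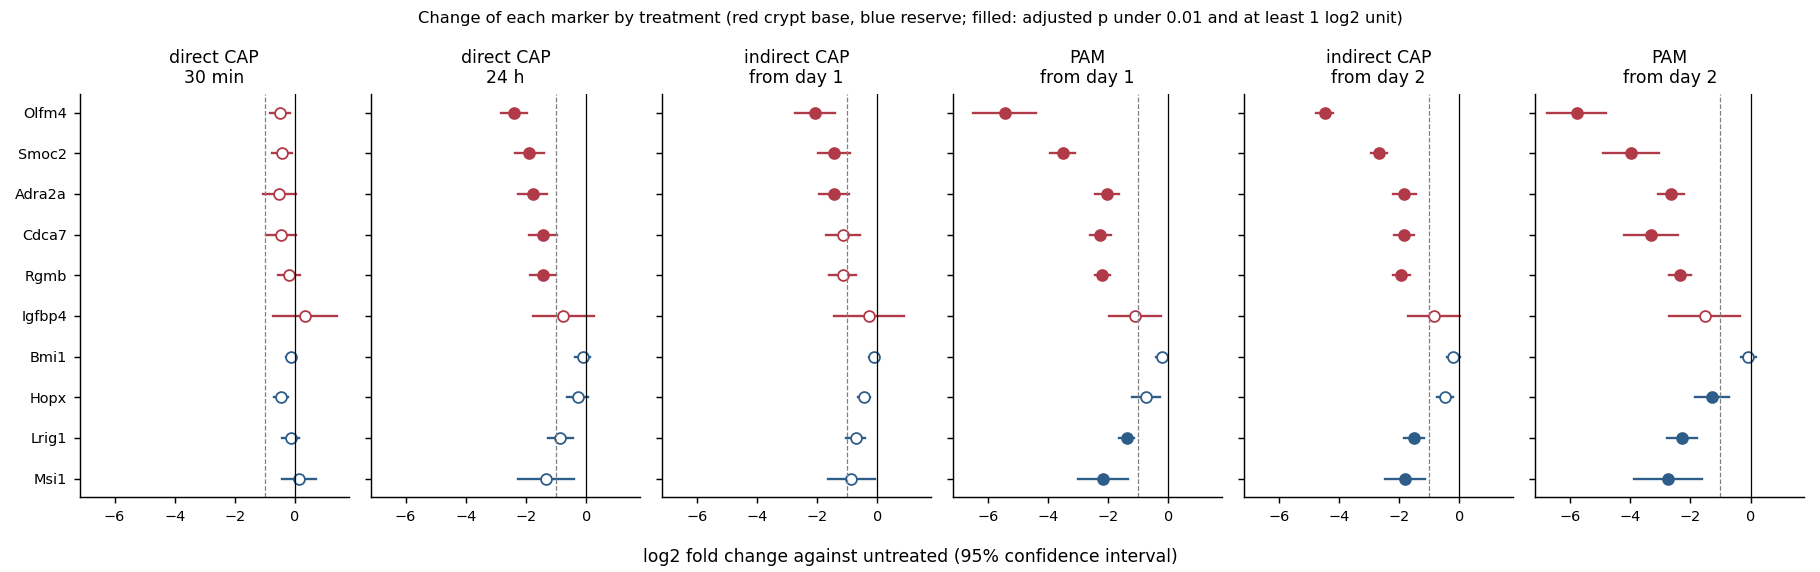
Log2 fold change against untreated (x axis, with its 95% confidence interval) of the 10 genes in the 6 treated groups; red marks the crypt base set, blue the reserve set, filled points passed the threshold and the dashed line is at -1. With PAM from day 2, 5 of 6 crypt base and 3 of 4 reserve genes passed, and Bmi1 sits at -0.07.

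Counted together, between 0 and 8 of the 10 genes were called in a group, always lower. Each count is given beside the share of all genes tested that were called lower. All 10 genes passed the filter on low values in every comparison, and the comparisons share the 4 untreated libraries. The 9 libraries of PAM from day 1, indirect CAP from day 1 and direct CAP for 24 h were also pooled, being the treatments of 24 h that began on day 1. They come from lines 1, 2 and 4 alone, and the unblocked fit takes them as independent, which they are not. In this pool 5 of 6 crypt base genes and 0 of 4 reserve genes were called, against 2.07% of all genes. Lrig1 missed by its size alone there (-0.99 ± 0.19, adjusted p = 0.00205). With the line as a block, Lrig1 was called (-1.01) and Olfm4 was not (adjusted p = 0.0219), 5 genes in all against 1.9% of all genes. With no limit on the size of the change and an adjusted p under 0.05, 8 genes passed, against 18.7%. Leaving out any 1 of the 4 untreated libraries, or line 4 of PAM from day 1, also took the call from Olfm4 (adjusted p between 0.0113 and 0.0203), and Smoc2 lost its call without untreated line 1 or line 4. Without untreated line 1, 3 genes were called. The share of all genes called with 1 library left out is not given here or below, so such counts cannot be set against it. Msi1 was called without line 2 of indirect CAP from day 1 (-1.62).

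Direct CAP for 30 min gave 0 of 10 calls with limma, against 0% of all genes called lower. At an unadjusted p under 0.05 there were 3 members (Olfm4, Smoc2 and Hopx) and 24.9% of all genes in either direction. Direct CAP for 24 h called 5 crypt base and 0 reserve genes, against 0.917% of all genes. This count fell to 3 without untreated line 1 or untreated line 3. It fell to 1 without untreated line 2, untreated line 4 or the line 1 library of direct CAP for 24 h. These smaller fits have no share of all genes beside them. With the line as a block, which called 0.681% of all genes, Cdca7 lost its call (adjusted p = 0.0107). With indirect CAP from day 1, limma called 3 crypt base genes (Olfm4, Smoc2 and Adra2a) and 0 reserve genes, against 0.477%. In this group 0 calls were left without any 1 of the 4 untreated libraries or without its own line 2, and 1 without its own line 1. The block left Olfm4 and Adra2a, against 0.449% of all genes, with an adjusted p of 0.0120 for Smoc2. At an adjusted p under 0.05 and no limit on size 7 genes passed, against 10.4%.

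PAM from day 1 called 5 crypt base genes and 2 reserve genes (Lrig1 and Msi1), against 5.4% of all genes, and all 10 genes had all treated libraries under all untreated ones, as did 29.7% of all genes. With indirect CAP from day 2 there were 7 calls, namely Lrig1, Msi1 and the crypt base genes other than Igfbp4, against 5.71%. With PAM from day 2 there were 8, Hopx being the additional gene, against 10.5%. In the first 2 of these groups 7 genes were called whichever library was left out, and in the last between 6 and 8. There Msi1 lost its call without untreated line 1 (adjusted p = 0.0110). The line as a block called 3.9%, 4.99% and 8.44% of all genes lower in these 3 groups. With it Msi1 lost its call with PAM from day 1 (adjusted p = 0.0186) and with indirect CAP from day 2 (adjusted p = 0.0115). With the untreated libraries of lines 3 and 4 alone, a choice made after the data were seen, 6 genes were called with PAM from day 1, against 2.79% of all genes, and 6 with indirect CAP from day 2, against 3.66%. The same choice left 1 of the 10 genes in the pooled comparison, against 0.152%. It left 0 with PAM from day 2, where 0.00583% of all genes were called lower, and 0 with indirect CAP from day 1 and direct CAP for 24 h, where 0% were. The log2 fold changes lost as calls stayed near those given above, and Olfm4 then had -5.84 (adjusted p = 0.0126) with PAM from day 2, -2.13 with indirect CAP from day 1 and -2.45 with direct CAP for 24 h, and with PAM from day 2 Smoc2 had -3.97 and Rgmb -2.33.

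The median log2 fold change of the 6 crypt base genes was -0.45 after direct CAP for 30 min and -1.61 after 24 h, -1.29 and -1.89 with indirect CAP from day 1 and day 2, and -2.23 and -2.97 with PAM from day 1 and day 2. For the 4 reserve genes the medians in the same order were -0.14, -0.57, -0.58, -0.997, -1.06 and -1.78. Over all genes tested, the medians lay between -0.134 and 0.017. The reserve set was not uniform: with PAM from day 2 its members ranged from -0.07 (Bmi1) to -2.74 (Msi1), while Lrig1, at -2.27, lay beside Rgmb, at -2.34.

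**Figure D4:**
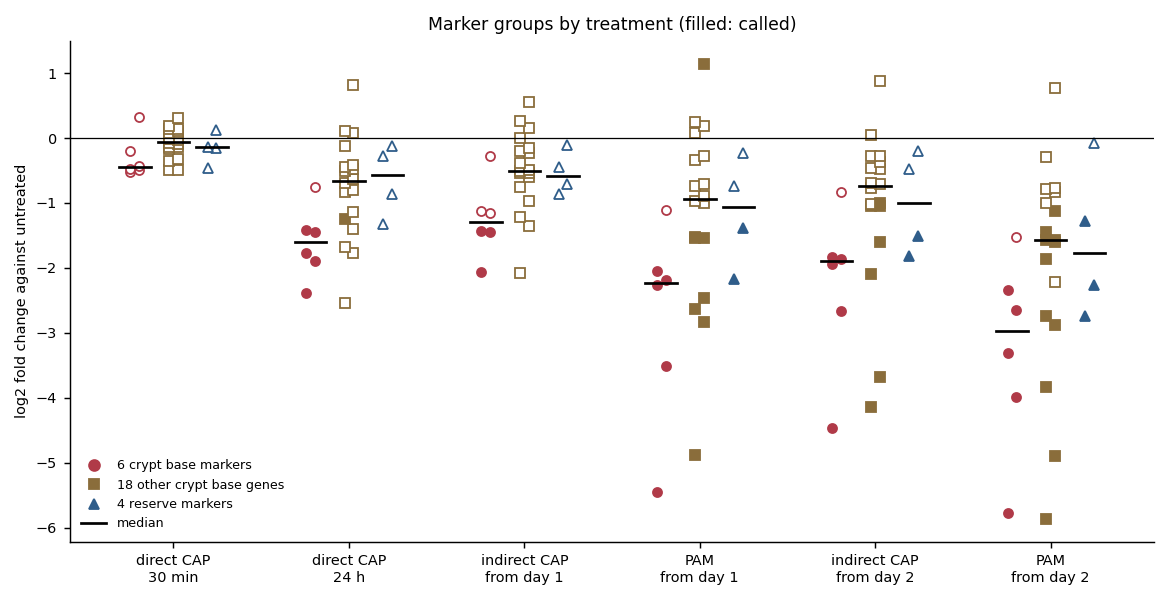
Log2 fold change against untreated (y axis) of the 6 crypt base genes, 18 other crypt base genes and the 4 reserve genes in the 6 treated groups; filled symbols passed the threshold and bars are medians. With PAM from day 2 the medians are -2.97, -1.58 and -1.78.

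Between treated groups, the question was whether the application method, the length of exposure or the day of treatment changed these genes. Groups from day 2 and day 1 differ in start day, age of the medium and time in fresh medium, which cannot be told apart. None of the 10 genes passed in any of the 7 comparisons made with limma without a block. Of all genes tested, 0% were called lower in any of them, with 3 libraries against 3. The number of the 10 genes at an unadjusted p under 0.05 was 8 for direct CAP for 24 h against 30 min, 0 for direct CAP for 24 h set against indirect CAP from day 1, 5 for PAM from day 1 against direct CAP for 24 h and 7 for PAM against indirect CAP from day 1. It was 6 for PAM against indirect CAP from day 2, 5 for indirect CAP from day 2 against day 1 and 2 for PAM from day 2 against day 1. Over all genes the share at that p was 21.4%, 6.95%, 10.4%, 21.7%, 9.48%, 21.7% and 26.8% in the same order.

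Lines 1, 2 and 4 recur in each treated group, and fitting the line as a block changed 3 of these 7 counts. Direct CAP for 24 h against 30 min then called 5 genes lower, namely Olfm4 (-1.89 ± 0.12, adjusted p = 0.000964), Smoc2 (-1.46 ± 0.12), Adra2a (-1.25 ± 0.14), Rgmb (-1.24 ± 0.11) and Msi1 (-1.45 ± 0.18, adjusted p = 0.00487), against 0.583% of all genes. Bmi1 (0.02 ± 0.14) and Hopx (0.19 ± 0.17) were not called between the 2 exposures. PAM from day 1 against direct CAP for 24 h called Olfm4 (-3.06 ± 0.41, adjusted p = 0.00694) and Smoc2 (-1.63 ± 0.24, adjusted p = 0.00868), against 0.281%. For indirect CAP, day 2 against day 1 called Olfm4 (-2.41 ± 0.16) and Smoc2 (-1.22 ± 0.12), against 2.31% of all genes. Without the block, 1 of the 10 genes, Olfm4 (adjusted p = 0.0266), passed an adjusted p under 0.05 there, against 2.21%. Lrig1 (-0.80 ± 0.08, adjusted p = 0.000126) and Msi1 (-0.96 ± 0.14, adjusted p = 0.00101) missed the limit for the fold change there.

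Of the 4 comparisons that stayed at 0 with the block, PAM against indirect CAP from day 1 had the largest difference in Olfm4, at -3.38 ± 0.62 (interval -4.85 to -1.91, adjusted p = 0.165, and 0.0244 with the block). In 6 of the 10 genes all libraries of PAM lay under all those of indirect CAP there. The share of all genes with this order is not given here, so the count is not read as a result about these genes. Some intervals were wide. PAM from day 2 against day 1 gave -0.33 for Olfm4, with an unblocked 95% confidence interval of -2.03 to 1.36, which spans a fall and a rise of more than 1 on the log2 scale. Between direct CAP for 24 h and indirect CAP from day 1, the latter was higher by 0.32 in Olfm4 (interval -0.56 to 1.20), and Bmi1 had an interval of -0.30 to 0.31. PAM against indirect CAP from day 2 gave -1.31 ± 0.50 for Olfm4 and -0.80 for Hopx (interval -1.50 to -0.11), with adjusted p = 0.523 for both.

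The order of the groups was the same for the 5 falling crypt base genes. Their means descended from untreated to direct CAP for 30 min, then indirect CAP from day 1, then direct CAP for 24 h, then indirect CAP from day 2, then PAM from day 1 and last PAM from day 2. For Olfm4, the libraries of neighbouring groups in this order did not overlap between untreated and direct CAP for 30 min, between the latter and indirect CAP from day 1, and between direct CAP for 24 h and indirect CAP from day 2. Those of the last 3 groups overlapped. Indirect CAP from day 1 and direct CAP for 24 h overlapped in all 10 genes. Lrig1 differed in that indirect CAP from day 2 (mean 1998) ranked under PAM from day 1 (mean 2152), with overlapping libraries. The means of Igfbp4 descended in the order of the other crypt base genes, except that direct CAP for 30 min (115) ranked above untreated (91.5). Msi1, a reserve gene, had the same order as Igfbp4, with 962 after direct CAP for 30 min and 863 untreated. The order is thus not particular to the crypt base set. For Bmi1, Hopx, Msi1 and Igfbp4 all neighbouring groups overlapped.

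As Olfm4 fell, the order of the genes per kb changed. Olfm4 ranked first per kb in untreated organoids and in the groups of direct CAP and indirect CAP from day 1. With PAM from day 1 Hopx ranked first (1054 ± 338 per kb, SD, n = 3) and Lrig1 second (385 ± 42.8 per kb), ahead of Olfm4 (216 ± 150 per kb) and Bmi1 (177 ± 5.82 per kb). With indirect CAP from day 2 the order of the first 3 was the same, with 1222 ± 181, 358 ± 78.8 and 350 ± 64.6 per kb. With PAM from day 2 Bmi1 also passed Olfm4, with means of 197 ± 20.0 and 167 ± 116 per kb. The level of Hopx carries the limit on Hopxos given above.

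The genes most like Olfm4 and Hopx were sought by the root mean square difference between 6 log2 fold changes, 1 per treated group, over 19360 genes and all 22 libraries. Nearest to Olfm4 was Lgr5 (difference 0.289), the Wnt pathway receptor that defines crypt base stem cells. Its mean fell from 1806 ± 721 untreated to 65.0 ± 40.4 with PAM from day 1 and 44.0 ± 46.1 with PAM from day 2. The pseudogene 9130208D14Rik (difference 0.464) was next, at 31083 ± 4814 untreated and 668 ± 435 with PAM from day 1. As a pseudogene it may share reads with a related gene. The protocadherin gene Pcdh8 (difference 0.494) was next, at 328 ± 135 untreated and 5.00 ± 5.00 with PAM from day 1. Pcdh8 lies on chromosome 14 (79766775 to 79771312, minus strand), 213 kb from Olfm4 with 0 protein-coding genes annotated between them. Nearest to Hopx was Hopxos (difference 0.0213), followed by 4930509E16Rik (0.0911) and Ccpg1os (0.0955), which are expressed at untreated means of 9.25 ± 1.26 and 32.2 ± 2.06.

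Other genes of the crypt base moved unevenly. Of 18 further crypt base genes tested, 5 were called lower in the pooled comparison (2.07% of all genes), 1 after direct CAP for 24 h (0.917%), 6 with PAM from day 1 (5.4%), 7 with indirect CAP from day 2 (5.71%) and 11 with PAM from day 2 (10.5%). None was called after direct CAP for 30 min or with indirect CAP from day 1, where the medians were -0.06 and -0.50. Prom1, which encodes the pentaspan membrane protein CD133, was the exception in direction, called higher with PAM from day 1 (1.15 ± 0.12). The 4 most abundant of the 18 were Slc12a2, Cdk6, Prom1 and Ephb2. Slc12a2, a chloride cotransporter, had -0.99 ± 0.20 with PAM from day 2, Cdk6, a cell cycle kinase, had -0.30 ± 0.14, Ephb2, a Wnt-induced ephrin receptor, had -0.79 ± 0.12 and Prom1 had 0.77 ± 0.29, none of them called. Lgr5, by contrast, was called lower with PAM and with indirect CAP from day 2, at -5.87 ± 0.70 with PAM from day 2.

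Of the other genes named as reserve markers, 0 of 4 (Tert, Krt19, Prox1 and Krt15) were called in any group but PAM from day 2. In that group Prox1 was lower (-2.62), as were 10.5% of all genes. Between 0% and 5.71% of all genes were called lower in the other groups. With PAM from day 2 Tert, the telomerase subunit, had -0.61, and the keratins Krt19 and Krt15 had 0.47 and 0.40. Of the paralogues of the 10 genes, 15 passed the filter with PAM from day 2 and 2 were called lower, near the 10.5% of all genes, namely the Cdca7 relative Cdca7l (-3.03) and the Lrig1 relative Lrig3 (-1.32). Both are named because they were the calls. The most abundant paralogue, Msi2, had 0.24 where Msi1 had -2.74, and Lrig2 had 0.47. Msi2 was not called in any group.

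Genes that act with the members were also read as lists. Of 9 partners of Bmi1 in Polycomb repressive complex 1, only Cbx2 was called, lower with PAM from day 1 (-1.27) and day 2 (-1.96) and with indirect CAP from day 2 (-1.16), and the abundant partners Phc2, Phc3 and Rnf2 had -0.36, 0.06 and -0.43 with PAM from day 2. Among 4 inhibitors of cyclin-dependent kinases, which include the Cdkn2a locus repressed by Bmi1, Cdkn1a was called higher in each group but direct CAP for 30 min, at 1.80 with PAM from day 2. Cdkn2a itself was low, with a mean of 19.5 untreated, and was called higher only in the pooled comparison (1.48). Cdkn2b was called higher with PAM from day 2 (1.02) and Cdkn1b lower with PAM from day 1 (-1.17) and day 2 (-1.03). The ErbB receptors that Lrig1 restrains were not called: Egfr had 0.16, Erbb2 -0.33 and Erbb3 -0.43 with PAM from day 2. Egfr had 0.78 ± 0.13 with PAM from day 1 (adjusted p = 0.00190) and missed a call by its size alone. In the BMP pathway of Rgmb, 9 genes were tested with PAM from day 2. The inhibitor Smad7 (2.08) and Neo1, the receptor that binds Rgmb (1.39), were called higher there and the target Id2 lower (-1.84). The receptors Bmpr1a, Bmpr2 and Acvr2a had -0.33, -0.06 and -0.08 and were not called. Cbx2, Smad7 and Id2 are named here because they were the calls. Of all genes, 5.4% were called lower with PAM from day 1, 5.71% with indirect CAP from day 2 and 10.5% with PAM from day 2. For calls in the other direction, the share of all genes in single groups is not given. The calls in these lists are therefore not read as results about the partners.

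Of 4 markers of regenerating and fetal-like epithelium (Clu, Areg, Anxa1 and Ly6a), 4 were called higher in the pooled comparison, with 2.12, 3.32, 1.70 and 2.60, where 4.27% of all genes were. In the single groups between 0 and 3 of them were called higher, and Areg, an EGF family ligand, was called higher in each group but direct CAP for 30 min. The share of all genes called higher there is not given. With 10 added to each value in place of 1, 1 of 17731 genes was called higher after direct CAP for 30 min and 230 of 17335 after 24 h. With indirect CAP it was 185 of 17818 from day 1 and 1012 of 17860 from day 2. PAM gave 839 of 17357 from day 1 and 1144 of 17694 from day 2. The sum of 4 Paneth markers (Lyz1, Defa24, Mmp7, Ang4) ran from 20896 to 29593 in untreated libraries, from 3648 to 15499 with PAM from day 1 and from 3686 to 16554 with PAM from day 2. It ran from 9800 to 24657 after direct CAP for 30 min and from 9554 to 18145 after 24 h. With indirect CAP it ran from 5899 to 16298 from day 1 and from 13114 to 22402 from day 2, the higher range belonging to the day with less Olfm4, and none of the 4 was called with indirect CAP from day 2. The sum of 4 proliferation markers (Mki67, Top2a, Pcna, Mcm2) ran from 18231 to 24350 untreated, from 9649 to 14323 with PAM from day 1 and from 3701 to 7250 with PAM from day 2. It ran from 16463 to 22394 after direct CAP for 30 min, from 12320 to 16202 after 24 h, and with indirect CAP from 13167 to 18073 from day 1 and from 7203 to 8926 from day 2. The number of these 4 called lower was 2 with PAM from day 1 (5.4% of all genes), 3 with indirect CAP from day 2 (5.71%) and 4 with PAM from day 2 (10.5%). The part of both sets of markers in the fall of the crypt base genes was not tested.

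In 4 genes the same line was highest, or the same line was lowest, in 6 of 6 treated groups. Cdca7 and Lrig1 were lowest in line 4. Msi1 was highest in line 2 in 6 of 6 treated groups, but among the untreated libraries of lines 1, 2 and 4 it was highest in line 1 (1123) and lowest in line 2 (658). Igfbp4 was highest in line 1 in 6 of 6 treated groups, and in the untreated libraries it was highest in line 2 (166) and lowest in line 1 (50). These are the same libraries that stood apart in the correlations above. Line 4 had the lowest of the 3 values in 41 of 60 pairs of gene and treated group. It was lowest for all 6 crypt base genes after direct CAP for 24 h and with indirect CAP from either day, but for only 1 of 6 with PAM from day 1, where line 1 was lowest for 3.

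**Figure D5:**
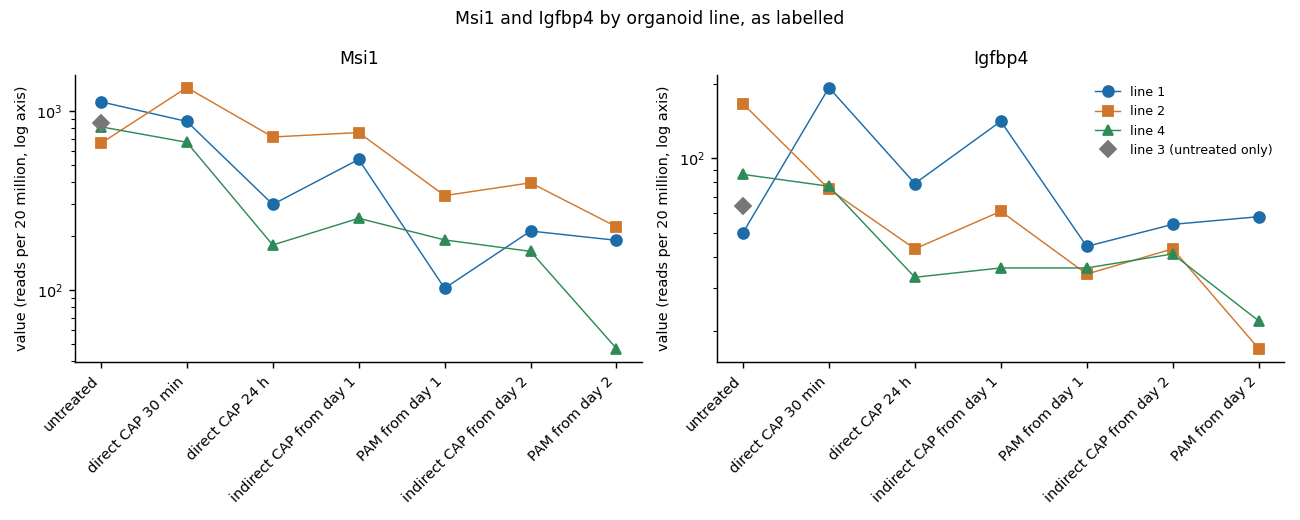
Values of Msi1 and Igfbp4 (reads per 20 M, log axis) in each group, with the libraries of a line joined. Line 2 is the highest of the treated libraries for Msi1 and line 1 for Igfbp4 in 6 of 6 groups, and the untreated libraries of lines 1 and 2 are in the opposite order.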

How the data were processed

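Per the submitters' processing notes and the study's methods, the authors trimmed reads with Trimmomatic 0.36, aligned them to GRCm38 with STAR 2.5.3a and counted them on Ensembl 90 genes with HTSeq 0.9.1. What the authors deposited is treated here as a score: counts scaled to 20 M per library, rounded up, and not divided by length, although the study's definition names kilobases. Since raw counts were not used here, log2(value + 1) was tested with limma 3.58.1 (R 4.3.3, trended) over genes that reached 10 in 3 or more of the fitted libraries, with each comparison fitted on its own libraries. Genes were called at a Benjamini-Hochberg adjusted p under 0.01 over all genes tested, with a change of 1 or more on the log2 scale. Exon lengths and positions are from GENCODE vM21, upstream sequence from RefSeq, and figures were drawn with matplotlib 3.10.9. The fit was tested on simulated data.

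The 10 genes and all lists were chosen with earlier results of these data known. Named genes are the 10, the most abundant of each list (up to 4, or all of lists of up to 6), and the 3 nearest to Olfm4 and Hopx, except 1 list gene that is not reported here. Counting error weighs most on Igfbp4. In unblocked comparisons of single groups, p-values measure the spread between lines. In the unblocked pool the spread also mixes treatments and repeated libraries of a line. With the line as a block, differences between lines are taken out only where the labels join libraries of the same line. Libraries with one number come from the same line, by the labels, and the correlation of treated libraries of a line was positive in 45 of 45 pairs. The untreated libraries of lines 1 and 2 each had a higher median correlation with the other line's treated libraries than with those of their own. Alternatives were the line as a replicate block, no filter, quantile normalization, 1 fit of all 7 groups, a pseudocount of 10, a looser threshold (adjusted p under 0.05, any size) and leaving out each library. The labels give passage 4 for lines 3 and 4 as numbered here, and the study gives passage 2 for the female lines of this experiment.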

Additional observations from a re-analysis of the deposited data

How the results depend on the processing

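Among the 10 genes, no called change turned its direction under any alternative. The number called with an adjusted p under 0.05 and no minimum fold change rose from 5 to 8 in the pooled comparison, from 3 to 7 with indirect CAP from day 1 and from 0 to 1 for indirect CAP from day 2 against day 1. Under the replicate block by organoid line it rose from 0 to 5 for direct CAP for 24 h against 30 min, to 2 for PAM from day 1 against direct CAP for 24 h and to 2 for indirect CAP from day 2 against day 1; the other 11 counts stayed within 1.5 times. With the untreated libraries of lines 3 and 4 alone, the count was 1 in the pooled comparison and 0 with PAM from day 2, indirect CAP from day 1 and direct CAP for 24 h, which, other than the pool, then had 5 libraries each, while the log2 fold change of Olfm4 was -3.36 (pool), -5.84, -2.13 and -2.45. Leaving out 1 library in turn (97 fits) gave 3 to 7 genes in the pooled comparison, 0 to 0 with direct CAP for 30 min, 1 to 6 with direct CAP for 24 h, 0 to 2 with indirect CAP from day 1, 7 to 7 with PAM from day 1 and with indirect CAP from day 2, 6 to 8 with PAM from day 2 and 0 to 0 in the 7 comparisons between treated groups. The share of all genes called in these smaller fits is not given. Quantile normalization shifted the all-gene median by 0.118 on the log2 scale with PAM from day 2, by 0.120 for PAM against indirect CAP from day 1 and by 0.115 for the same pair from day 2, and no call among the 10 genes was gained or lost. The deposited scaling fixes the sum of all values, so that a change is relative to the rest of the library. With PAM from day 2 the widest interval of the 10 genes was that of Igfbp4 (-2.70 to -0.34), whose untreated mean was 91.5.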
